A study of Mus musculus with 9 samples.

Results

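Baseline interferon tone, the low transcription of antiviral genes that cells keep up without infection, was compared in the brain cortex of 3 inbred mouse strains through 37 interferon-stimulated genes of the 54532 genes in the expression table. The 37 were chosen by name, and each was found once in the table. Cortex RNA had been sequenced from 3 male mice each of B6 (C57BL/6J, spelled C57BL6/J in the labels), C3H (C3H/HeJ) and WSB (WSB/EiJ, a wild-derived strain), aged 8 to 12 weeks, with no treatment or induced allele named in the labels. The study had set these strains side by side in a search for genes that protect the brain from ischemic injury. The labels do not say whether the mice came from separate litters or were collected together, so the tests measure the spread between these animals alone.

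Type I interferons bind the receptor made of IFNAR1 and IFNAR2, which activates the kinases JAK1 and TYK2 and brings STAT2 and IRF9 into the complex ISGF3. ISGF3 enters the nucleus and binds the interferon-stimulated response element (ISRE) in the promoters of interferon-stimulated genes. Type II interferon acts instead through the gamma-activated site (GAS). In the brain, microglia, endothelial cells, astrocytes and neurons can all respond, and some of these genes are transcribed at a low level without infection.

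The ISRE and GAS motifs were sought in the promoters of the members. Promoter sequence (RefSeq, GRCm38.p6) was matched for 29 of the 37 genes. In the 250 bases before the transcription start, an ISRE match, written as GAAA, any 2 bases and GAAA again and read on both strands, was found in 11 of the 29 (37.9%), against 3.46% of 27025 genes with a promoter in the same reference. The GAS motif TTCNNNGAA, which reads the same on both strands, was found in 7 of the 29 (24.1%) and in 8.13% of all genes. A match describes the reference sequence and was not tested as a binding site, and the letters shown are those of the reference genome, not of C3H or WSB mice. The 160 bases before the start are shown for Gbp3 and Ifit1, the members that differed between strains, for their chromosome neighbours Gbp2, Gbp7 and Ifit3, and for Isg15, with ISRE matches in capitals and overlapping matches run together.
Gbp3, chr3:142559884-142560043, plus strand: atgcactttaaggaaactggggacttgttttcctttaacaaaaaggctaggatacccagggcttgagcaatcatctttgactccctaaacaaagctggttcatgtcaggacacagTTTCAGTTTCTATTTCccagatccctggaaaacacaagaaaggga
Gbp2, chr3:142620503-142620662, plus strand: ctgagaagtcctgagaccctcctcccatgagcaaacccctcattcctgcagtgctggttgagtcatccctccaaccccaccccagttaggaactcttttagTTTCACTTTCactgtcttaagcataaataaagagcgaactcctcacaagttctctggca
Gbp7, chr3:142530176-142530335, plus strand: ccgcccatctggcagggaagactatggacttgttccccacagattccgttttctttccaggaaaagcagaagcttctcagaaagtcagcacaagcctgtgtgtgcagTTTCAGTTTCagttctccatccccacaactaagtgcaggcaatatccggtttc
Ifit1, chr19:34640729-34640888, plus strand: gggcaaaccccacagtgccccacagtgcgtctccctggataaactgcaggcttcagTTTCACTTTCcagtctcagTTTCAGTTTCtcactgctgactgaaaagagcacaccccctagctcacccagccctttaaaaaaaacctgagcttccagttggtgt
Ifit3, chr19:34583369-34583528, plus strand: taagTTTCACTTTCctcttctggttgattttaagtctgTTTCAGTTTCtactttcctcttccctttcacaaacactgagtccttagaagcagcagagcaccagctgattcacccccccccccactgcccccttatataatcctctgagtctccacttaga
Isg15, chr4:156200819-156200978, minus strand: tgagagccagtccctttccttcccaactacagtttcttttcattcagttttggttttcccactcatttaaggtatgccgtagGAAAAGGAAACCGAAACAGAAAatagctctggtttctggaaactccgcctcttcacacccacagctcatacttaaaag
Gbp3 had 2 overlapping ISRE matches at 45 and 39 bases before the start shown, and Isg15 had 3 at 78, 72 and 66. Another Gbp3 start in the same reference had no ISRE or GAS match in its window. Gbp2 and Gbp7 each had 1 match, at 59 and 53 bases before the start. Ifit1 had 2 at 104 and 85, and Ifit3 had 2 at 156 and 122. Psmb8, described below for its lower values in WSB, had no ISRE match and 1 GAS match in its window.

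Expression was given as FPKM, fragments scaled to exon length and library depth, from 17651630 to 21562429 reads on genes in B6 libraries, 19042306 to 19433751 in C3H libraries and 16317439 to 17784118 in WSB libraries. Libraries of one strain were not duplicates of each other. B6 replicate 2 stood apart from the other B6 mice in its choroid plexus markers, which summed to 764 FPKM against 66.6 and 64.1. Those markers summed to 91.8 in C3H replicate 1 and to between 446 and 655 FPKM in the 2 other C3H mice, and to between 468 and 603 in WSB. Red blood cell markers summed to between 632 and 1010 FPKM in C3H, against 217 to 254 in B6 and 249 to 329 in WSB. Markers of cortical excitatory neurons summed to between 585 and 884 FPKM in all 9 libraries, markers of striatum and hippocampus to between 110 and 355, and markers of leukocytes other than microglia to at most 2.83 FPKM with Cd3g at 0.

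Most of the 37 genes were transcribed at a low level. Their means over the 9 mice had a median of 0.552 FPKM, whereas the 15134 protein-coding genes with at least 0.1 FPKM had a median of 4.71 FPKM. A mean of at least 0.1 FPKM was reached by 33 members, 0.5 FPKM by 19, 1 FPKM by 11 and 10 FPKM by 2. The 2 highest were Ifi27, which encodes a small membrane protein, at 17.4 to 23.7 FPKM, and Ifitm3, which blocks the entry of enveloped viruses, at 8.78 to 17.9 FPKM. Ifitm3 passed the test between C3H and B6 only when C3H replicate 2, at 12.3 FPKM, was left out. The 37 genes summed to 62.8 to 77.8 FPKM in B6 mice, 67.3 to 76.4 in C3H mice and 59.0 to 65.5 in WSB mice. Without Ifi27 and Ifitm3 the sums were 32.6 to 40.5, 34.3 to 37.1 and 27.4 to 33.1 FPKM. The latter sums of WSB overlapped those of B6 and lay below those of C3H.

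**Figure D1:**
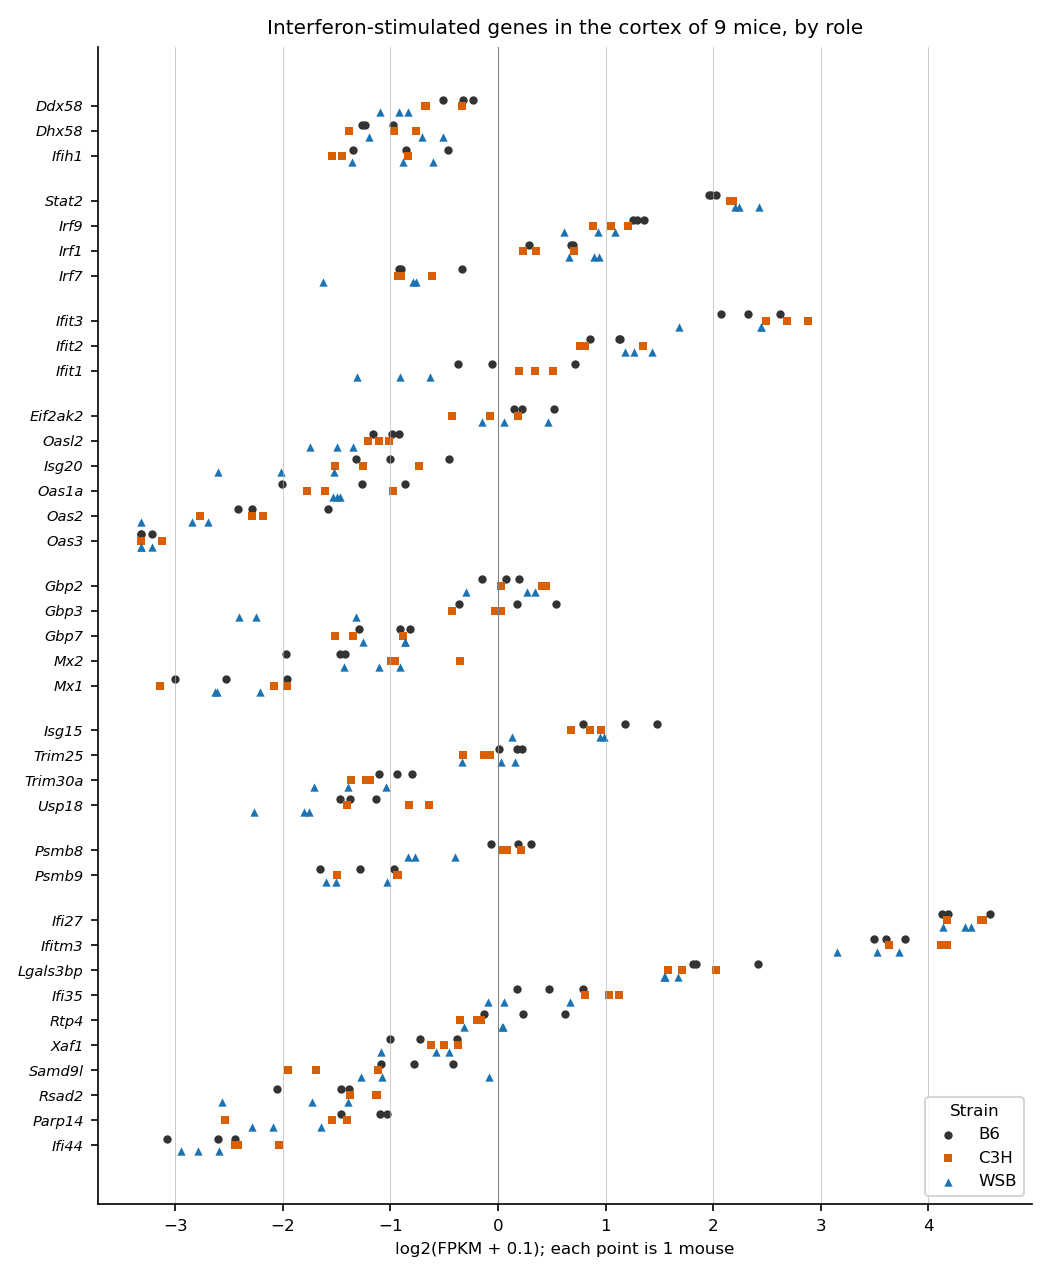
Level of each of the 37 interferon-stimulated genes in each of the 9 mice, on a log2(FPKM + 0.1) axis, with 1 point per mouse and genes grouped by role. Ifi27 and Ifitm3 lie far to the right, Oas3 sits at the left edge, and the WSB points of Gbp3, Ifit1 and Psmb8 lie to the left of all B6 and C3H points.

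Among the sensors of viral RNA, Ddx58 (encoding RIG-I) was at 0.753, 0.604 and 0.699 FPKM in B6, 0.526, 0.527 and 0.694 in C3H and 0.461, 0.369 and 0.427 in WSB. The WSB mice were below every mouse of both other strains, although neither difference passed the test. Ifih1 (encoding MDA5) ranged from 0.243 to 0.625 FPKM and Dhx58 (encoding LGP2) from 0.284 to 0.600 FPKM over the 9 mice, with overlap between all strains.

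The transcription factors of the response were among the better measured members. Stat2 was at 3.79, 3.84 and 3.98 FPKM in B6, 4.36, 4.46 and 4.39 in C3H and 5.28, 4.51 and 4.64 in WSB, so that the 3 strains did not overlap. Its partner in ISGF3, Irf9, stood in the opposite order, at 2.29, 2.35 and 2.47 FPKM in B6, 2.20, 1.74 and 1.97 in C3H and 1.81, 2.03 and 1.43 in WSB, with C3H and WSB overlapping. For WSB against B6 the log2 fold changes were 0.30 (SE 0.10, limma adjusted p = 0.133) for Stat2 and -0.42 (SE 0.15, limma adjusted p = 0.172) for Irf9, and neither passed the test in any comparison. Irf1, an early factor of the type II response, ranged from 1.08 to 1.81 FPKM and Irf7, which amplifies interferon production, from 0.223 to 0.695 FPKM, and both overlapped between all strains.

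The IFIT proteins bind viral RNA and limit its translation, and their genes lie side by side on chromosome 19. Ifit1 (19:34640871-34650009 on GRCm38) was at 0.862, 1.55 and 0.671 FPKM in B6 and 1.17, 1.32 and 1.05 in C3H, against 0.543, 0.304 and 0.433 in WSB. All 3 WSB mice lay below all 6 others, on 14 to 24 reads per mouse. Ifit1 was lower in WSB than in C3H by a log2 fold change of -1.30 (SE 0.24, limma adjusted p = 0.0235), or 2.47-fold, and had a log2 fold change of -1.05 against B6 (SE 0.34, limma adjusted p = 0.133) that did not pass the test. The call against C3H held in 2 of 6 fits that each left out 1 mouse, those without C3H replicate 2 and without WSB replicate 1, and the log2 fold change ran from -1.46 to -1.12 over the 6. Ifit3, the most abundant IFIT, spanned 4.11 to 6.04 FPKM in B6 mice, 5.52 to 7.30 in C3H mice and 3.11 to 5.36 in WSB mice, and Ifit2 spanned 1.60 to 2.59 FPKM over all mice. Neither of these neighbours passed the test in any comparison. Ifit3 shares 97.8% identity over 1700 bases with Ifit3b, so its value is uncertain where reads fit both, whereas the nearest transcript to Ifit1 was Ifit1bl1, at 76.0% over 1371 bases.

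The guanylate-binding proteins are GTPases that attack the membranes of intracellular pathogens. Gbp3 (3:142560026-142573209) was at 1.35, 1.03 and 0.676 FPKM in B6 and 0.642, 0.917 and 0.884 in C3H, against 0.111, 0.0884 and 0.302 in WSB. These WSB values rest on 6, 5 and 18 reads, and the highest of them is below the lowest of the other strains, which rested on 39 to 79 reads. Gbp3 was lower in WSB than in B6 by a log2 fold change of -2.11 (SE 0.39, limma adjusted p = 0.0225), or 4.31-fold on the log2(FPKM + 0.1) scale, and lower than in C3H by -1.85 (SE 0.36, limma adjusted p = 0.0300), or 3.60-fold. The call against B6 held in 2 of 6 fits with 1 mouse left out, those without B6 replicate 3 and without WSB replicate 3, and the call against C3H in 1 of 6, that without WSB replicate 3. Over these fits the log2 fold change ran from -2.44 to -1.90 against B6, with -2.08 without B6 replicate 2, and from -2.18 to -1.64 against C3H. B6 and C3H overlapped for Gbp3. Its nearest transcript was Gbp7, at 80.5% over 1695 bases.

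Gbp2 and Gbp7, which lie beside Gbp3 on chromosome 3, were not called in any comparison. Gbp2 spanned 0.802 to 1.04 FPKM in B6 mice, 0.922 to 1.26 in C3H mice and 0.712 to 1.17 in WSB mice, and Gbp7 ranged from 0.249 to 0.468 FPKM over the 9 mice, with all strains overlapping for both. For WSB against B6 the 95% interval of the log2 fold change was -0.47 to 0.60 for Gbp2 and -0.63 to 0.65 for Gbp7. These intervals leave room for changes of either sign. Mx proteins are dynamin-like GTPases that trap viral nucleocapsids, but the Mx2 gene is annotated here as a polymorphic pseudogene. Transcripts of Mx1 and Mx2 were low. Mx2 was at 0.155, 0.260 and 0.273 FPKM in B6 and 0.401, 0.685 and 0.413 in C3H, without overlap and without passing the test. Mx1 had at most 12 reads in any mouse. The transcripts of Mx1 and Mx2 share 94.8% identity over 920 bases, so reads may be split between them.

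**Figure D2:**
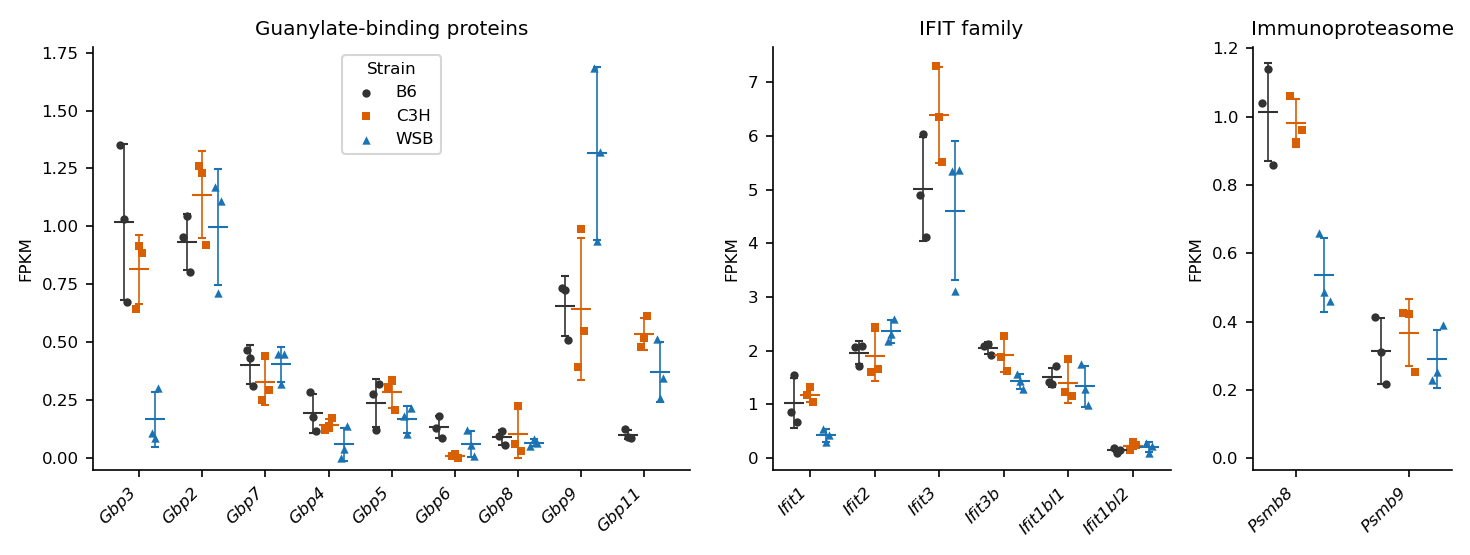
FPKM of guanylate-binding protein, IFIT and immunoproteasome genes, with 1 point per mouse, horizontal marks at the mean and bars of 1 SD (3 mice per strain). The WSB points of Gbp3, Ifit1 and Psmb8 lie below all B6 and C3H points, while those of Gbp2, Gbp7, Ifit2 and Psmb9 overlap at least 1 other strain.

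Psmb8 and Psmb9 encode catalytic subunits of the immunoproteasome, which cuts peptides for MHC class I. Psmb8 was at 1.04, 1.14 and 0.858 FPKM in B6, 1.06, 0.924 and 0.961 in C3H and 0.659, 0.485 and 0.460 in WSB. The WSB mice lay below all others, with log2 fold changes of -0.81 against B6 (SE 0.22, limma adjusted p = 0.0824) and -0.78 against C3H (SE 0.21, limma adjusted p = 0.0811), neither of which passed the test. Both passed when all 3 strains were fitted together and shared one estimate of the spread. Psmb9, its neighbour on chromosome 17, ranged from 0.218 to 0.426 FPKM with all strains overlapping. The span given for Psmb9 is the only one of the 37 that differs from the GENCODE M21 annotation.

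The 2′-5′-oligoadenylate synthetases make the activator of the nuclease RNase L, and they were close to the limit of detection. Oas3 had at most 2 reads in any mouse, and Oas2 had 7, 21 and 10 reads in B6, 10, 9 and 4 in C3H and 4, 3 and 0 in WSB. Oas1a ranged from 0.148 to 0.448 FPKM, and is uncertain because it shares 97.5% identity over 1860 bases with Oas1g. Oasl2 spanned 0.346 to 0.429 FPKM in B6 mice, 0.331 to 0.396 in C3H mice and 0.198 to 0.292 in WSB mice, and the nuclease gene Isg20 had at least 10 reads in each B6 mouse, 9 in each C3H mouse and at most 8 in each WSB mouse. Both were below the other strains in every WSB mouse without passing the test. For Isg20 the values nearly touched, at 0.248 FPKM in the highest WSB mouse and 0.249 in the lowest C3H mouse. Eif2ak2 (encoding PKR, which halts translation on viral RNA) ranged from 0.645 to 1.33 FPKM and overlapped between all strains.

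Isg15 encodes a ubiquitin-like protein that is joined to other proteins, and Usp18 encodes the enzyme that removes it and also dampens the receptor. Isg15 was at 1.63, 2.69 and 2.17 FPKM in B6, 1.71, 1.502 and 1.84 in C3H and 1.83, 0.993 and 1.88 in WSB, on 13 to 41 reads. Usp18 was at 0.260, 0.355 and 0.286 FPKM in B6, 0.539, 0.462 and 0.277 in C3H and 0.108, 0.186 and 0.196 in WSB. For Isg15 the strains overlapped, and for Usp18 the WSB mice were lowest without passing the test (log2 fold change -0.98 against C3H, SE 0.35, limma adjusted p = 0.147). The ubiquitin ligase genes Trim25, which acts on RIG-I, and Trim30a were at 0.693 to 1.07 and 0.205 to 0.475 FPKM, and in both the B6 mice were above all C3H mice but overlapped with WSB.

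The remaining effectors gave no call either. Ifi35 was at 1.29, 1.63 and 1.03 FPKM in B6, 1.65, 1.94 and 2.09 in C3H and 0.940, 0.836 and 1.49 in WSB, with C3H above both other strains. Its log2 fold change for WSB against C3H was -0.78 (SE 0.23, limma adjusted p = 0.0998), and it passed the test without WSB replicate 3. Samd9l had a log2 fold change of -0.83 (SE 0.34, limma adjusted p = 0.189) in C3H against B6, and Parp14, an ADP-ribosyltransferase gene, one of -0.81 (SE 0.34, limma adjusted p = 0.234) in WSB against B6. Lgals3bp was at 3.41 to 5.25 FPKM in B6 and 2.81 to 3.08 in WSB, Rtp4 at 0.681 to 1.44, Xaf1 at 0.372 to 0.671, Rsad2 (encoding viperin) at 0.0694 to 0.359 and Ifi44 at 0.0182 to 0.143 FPKM over the 9 mice. Ifi44 was too low to be tested, and the others passed in none of the 3 comparisons.

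Counted over the list, WSB mice had the lower values, and few single genes passed the test. In WSB against B6, 33 members had a mean of at least 0.1 FPKM and were tested, and 1 of them, Gbp3, was lower (background: 5.9% of 20746 genes passed, 2.81% higher and 3.09% lower in WSB). An unadjusted p under 0.05 was reached by 9 of the 33 (27.3%), 8 of them lower, against 20.4% of all genes, 10.1% higher and 10.3% lower. The 3 WSB and 3 B6 values did not overlap for 12 members (36.4%), 10 of them lower in WSB (30.3%). Of all genes, 26.0% did not overlap, 13.0% higher and 13.1% lower in WSB. The log2 fold change was below 0 for 26 of the 33, with a median of -0.18, while 49.7% of all genes tested were below 0 with a median of 0.00. With 1 mouse left out at a time, 23 to 28 members were below 0 and the median ran from -0.13 (without B6 replicate 2) to -0.29 (without B6 replicate 3) and -0.32 (without WSB replicate 3). Stat2 and Ifit2 were the 2 members without overlap that were higher in WSB.

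In C3H against B6, 34 members were tested, Oas2 among them, and limma called none, with or without voom weights (background: 4.64% of 20602 genes passed, 2.38% higher and 2.26% lower in C3H). An unadjusted p under 0.05 was reached by 3 of the 34, Mx2 and Ifi35 higher and Samd9l lower in C3H (8.82%, against 24.1% of all genes, 12.0% higher and 12.1% lower). Values did not overlap for 9 members, 4 higher and 5 lower in C3H (26.5%, against 28.9% of all genes, 14.9% higher and 14.0% lower). Both shares lay below the background. The median log2 fold change was -0.09, with 21 of the 34 below 0, and ran from -0.14 without B6 replicate 3 to -0.04 without C3H replicate 3, with -0.05 without B6 replicate 1 and -0.05 without B6 replicate 2.

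In WSB against C3H, 33 members were tested and 2, Ifit1 and Gbp3, were lower in WSB (background: 5.74% of 20607 genes passed, 2.61% higher and 3.13% lower in WSB). An unadjusted p under 0.05 was reached by 6, all lower in WSB (18.2%, against 23.8% of all genes in either direction, 11.9% higher and 11.9% lower). Values did not overlap for 11 (33.3%), 10 of them lower in WSB (30.3%). Of all genes, 28.6% did not overlap in either direction, 14.2% higher and 14.4% lower in WSB. The members' median log2 fold change was -0.18 with 23 of the 33 below 0. With 1 mouse left out, the median ran from -0.15 (without C3H replicate 1) to -0.27 (without WSB replicate 3). The WSB mice are shared with the comparison against B6, so the 2 counts are not independent of each other.

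Ranked by strain means, WSB was lowest for 21 of the 33 members with at least 0.1 FPKM, C3H for 8 and B6 for 4. Leaving out 1 mouse at a time, a choice made after seeing the data, WSB was lowest for 16 (without WSB replicate 1) to 21 members, with 19 without B6 replicate 2. Over all 20768 genes at that level, WSB was lowest for 30.4%, C3H for 36.3% and B6 for 33.3%. B6 was highest for 16 members, C3H for 11 and WSB for 6. Mx1, Ifi44 and Oas3 were under 0.1 FPKM in every comparison and were not tested.

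**Figure D3:**
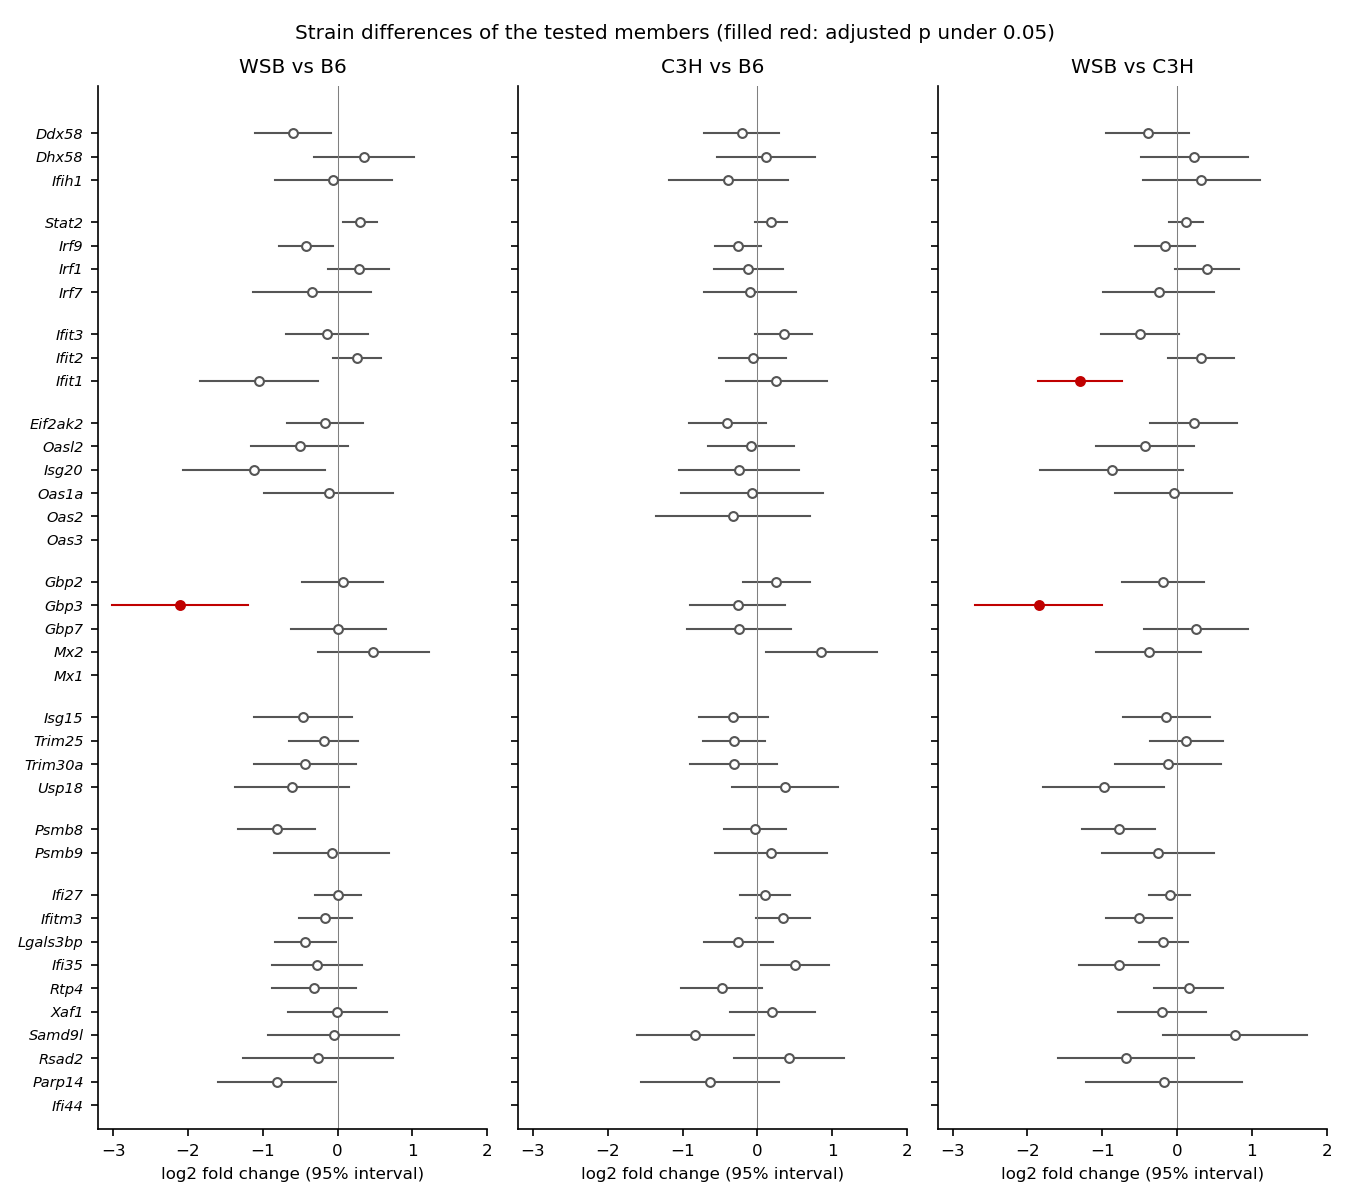
Log2 fold change of each tested member in the 3 strain comparisons, with the limma 95% interval as a line and filled red points where the adjusted p was under 0.05. Gbp3 is filled in both WSB comparisons and Ifit1 in WSB against C3H, most open points of the WSB panels lie left of 0, and no point is filled in C3H against B6.

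Markers of several cell types also moved in WSB. The 10 microglia markers summed to between 174 and 188 FPKM in WSB, against 227 to 236 in B6 and 205 to 240 in C3H, and 4 of the 10 (Csf1r, C1qb, C1qc and Trem2) were lower in WSB than in B6. The 8 endothelial markers summed to between 42.5 and 51.4 FPKM in WSB against 56.0 to 61.8 in B6 and 55.2 to 66.6 in C3H. That sum leans on Itm2a, with a mean of 25.3 FPKM in B6 and 17.5 in WSB. In WSB against B6, 2 of the 8 were called, both lower, and values did not overlap for 4 (50.0%, against 26.0% of all genes). Cldn5, Flt1, Pecam1 and Abcb1a overlapped between WSB and B6. Oligodendrocyte markers summed to between 366 and 527 FPKM in WSB against 679 to 864 in B6 and 645 to 859 in C3H. In cortex tissue, fewer cells of a type and less RNA per cell cannot be told apart, and the part of these shifts in the values of the members was not tested. The reference genome is that of B6, so a strain difference and a poorer match of WSB or C3H reads to the reference cannot be told apart either.

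Mice of one strain also differed from each other across the list. B6 replicate 2 was the highest of its strain for 17 of the 33 members (51.5%, against 27.8% of all genes), with a median deviation of 0.15 on the log2 scale from the strain mean. B6 replicate 3 was the lowest for 19 of the 33, against 31.3% of all genes, with a median deviation of -0.15. B6 replicate 2 is the mouse with the high choroid plexus sum, whose part in these values was not tested. WSB replicates 1 and 3 had median deviations of 0.08 and 0.11, and WSB replicate 2 of -0.10. These deviations are of single mice from a strain mean, whereas the median of -0.18 between WSB and B6 is a difference of strain means. The sizes are therefore not directly comparable. By these medians, B6 replicates 2 and 3 lay on opposite sides of the strain mean.

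**Figure D4:**
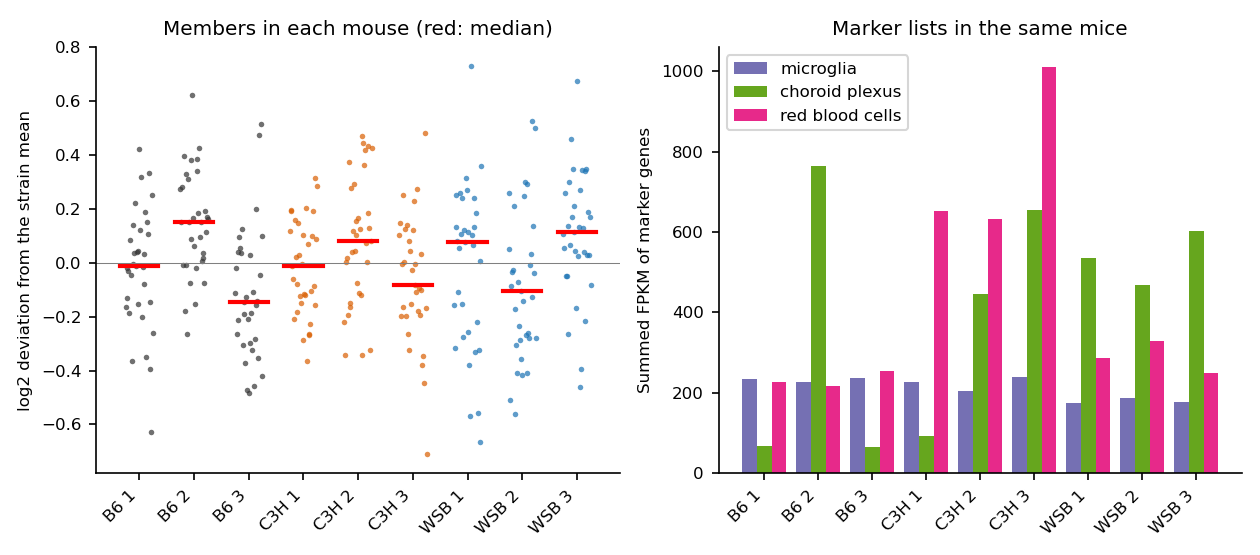
Left, log2 deviation of each of the 33 members with at least 0.1 FPKM from its strain mean, with 1 point per gene and the median in red for each mouse. Right, summed FPKM of microglia, choroid plexus and red blood cell markers in the same mice, in which B6 replicate 2 has a choroid plexus sum of 764 FPKM and the other B6 mice 66.6 and 64.1.

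The interferons themselves were at or next to 0. Of 21 listed ligand genes, 19 were at 0 reads in all 9 mice, among them Ifnb1, encoding interferon beta, and Ifng, encoding interferon gamma. Ifne and Ifnk had 1 read each, in B6 replicate 3 and WSB replicate 1. A count of 0 allows up to 3 reads in a library, so these libraries could not show lower levels.

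The receptors and their signaling chain gave no call. Of 11 listed receptor and JAK-STAT genes 10 were tested, and 0 passed in any comparison with limma or with voom weights, with 1, 3 and 5 at an unadjusted p under 0.05 in WSB against B6, C3H against B6 and WSB against C3H (all genes: 20.4%, 24.1% and 23.8%). In WSB against C3H, values did not overlap for 6 of the 10, 2 higher and 4 lower in WSB (60.0%, against 28.6% of all genes). Ifnar1 was at 7.94, 6.89 and 8.37 FPKM in B6, 9.17, 9.40 and 10.04 in C3H and 7.74, 7.68 and 7.40 in WSB, so C3H was highest without passing the test (WSB against C3H, log2 fold change -0.32, SE 0.08, limma adjusted p = 0.0610). Ifnar2 was at 2.84 to 4.54 FPKM over all mice. Of 12 listed negative regulators 11 were tested and 0 passed in each comparison with limma or with voom weights, with 0, 2 and 3 at an unadjusted p under 0.05 in the same order.

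Of the 16 tested genes that lead to interferon production, 1 passed in each WSB comparison and 0 in C3H against B6 (6.25% in WSB against C3H, with a background of 5.74% there and 5.9% in WSB against B6). Tlr3, the endosomal sensor of double-stranded RNA, was at 1.77, 1.69 and 1.59 FPKM in B6, 1.21, 1.61 and 1.29 in C3H and 0.670, 0.288 and 0.463 in WSB. Every WSB mouse was below every other mouse. Tlr3 was lower in WSB than in B6 by a log2 fold change of -1.69 (SE 0.27, limma adjusted p = 0.0120) and than in C3H by -1.40 (SE 0.28, limma adjusted p = 0.0339). The call against B6 was lost without B6 replicate 1 and without B6 replicate 2, and the call against C3H held in 1 of 6 fits with 1 mouse left out, that without WSB replicate 1.

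A further list of 80 interferon-stimulated genes outside the 37, longer and also chosen with earlier results of these data known, gave more calls. In WSB against B6, 54 were tested and 8 were lower in WSB with 0 higher, with a median log2 fold change of -0.31 (9 lower and 1 higher with voom weights). In C3H against B6, 57 were tested and 3 were higher and 4 lower in C3H, with a median of -0.11 (3 higher and 7 lower with voom weights). In WSB against C3H, 51 were tested and 5 were lower in WSB with 0 higher, with a median of -0.22 (5 lower and 1 higher with voom weights). All genes had medians of 0.00, 0.00 and 0.01 in the same order. Of all genes, 5.9% passed in WSB against B6 (2.81% higher and 3.09% lower in WSB). In C3H against B6 4.64% passed (2.38% higher and 2.26% lower in C3H), and in WSB against C3H 5.74% (2.61% higher and 3.13% lower in WSB). The genes called in at least 1 comparison numbered 13, and the 10 with the largest fold changes are given here, the other 3 being B2m, Bst2 and Psmb10.

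Among the called genes of this list, the largest fold changes were in tripartite-motif genes of the cluster on chromosome 7 that also holds Trim30a. Trim12a had 40, 63 and 45 reads in B6, 1, 0 and 0 in C3H and 4, 7 and 4 in WSB, a ratio of B6 to C3H of 143 with a counting interval of 25.3 to 5685. Trim30d had 23, 24 and 31 reads in B6 and 0 in all C3H mice, at least 8.35-fold lower in C3H against the limit of 3 reads per library, and 0, 4 and 0 in WSB. Trim12c was at 0.777, 1.15 and 0.790 FPKM in B6, 0.661, 0.952 and 0.620 in C3H and 0.177, 0.108 and 0.132 in WSB. Trim30a, the member of the 37 in this cluster, spanned 0.365 to 0.475 FPKM in B6 mice, 0.288 to 0.339 in C3H mice and 0.205 to 0.386 in WSB mice, and shares 89.9% identity over 1721 bases with Trim30d. For these genes too, a lower transcript level and a poorer match of a strain's reads to the reference cannot be told apart.

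Among the other called genes, Slfn5 spanned 0.806 to 0.839 FPKM in B6 mice, 0.442 to 0.563 in C3H mice and 0.162 to 0.320 in WSB mice, with no overlap between strains. Mndal had 13, 27 and 21 reads in B6 and 1, 0 and 0 in WSB. The immunity-related GTPase genes Igtp and Irgm2 were highest in B6, at 2.16 to 2.38 and 0.792 to 0.890 FPKM. They overlap each other on chromosome 11, so both values are uncertain where a read falls on both genes. Ube2l6, the enzyme that conjugates ISG15, was lower in WSB than in C3H (1.65 to 2.14 against 4.04 to 4.80 FPKM, log2 fold change -1.23, SE 0.14, limma adjusted p = 0.00337). Gbp11 and Tor3a were higher in C3H than in B6, Gbp11 at 0.479 to 0.613 against 0.0872 to 0.124 FPKM and Tor3a at 3.79 to 4.26 against 1.71 to 2.18 FPKM. Without voom weights, all calls of the further list were lower in WSB in both WSB comparisons. In C3H against B6 they ran in both directions.

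**Figure D5:**
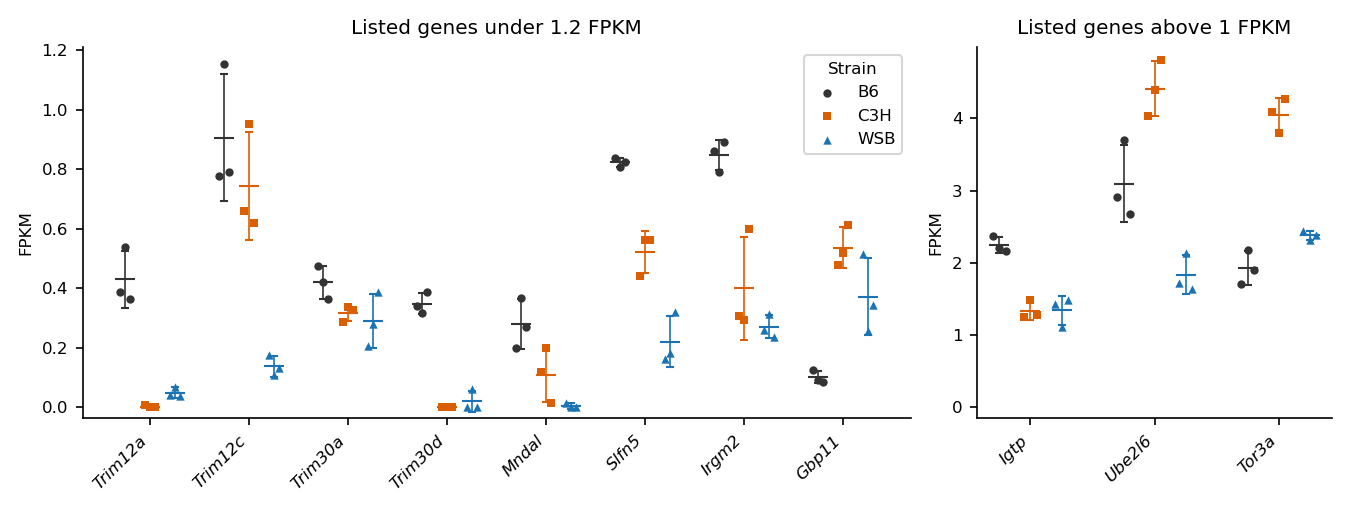
FPKM of the 10 called genes with the largest fold changes from the further list of 80, and of Trim30a, with 1 point per mouse, horizontal marks at the mean and bars of 1 SD (3 mice per strain). Trim12a and Trim30d are near 0 in C3H and WSB, Trim12c is low in WSB alone, and Gbp11 and Tor3a have their highest mean in C3H.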

How the data were processed

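RNA had been sequenced as paired 150 bp reads from the cortex of 9 mice. The authors trimmed the reads with Cutadapt and counted them on genes with HTSeq, and STAR and DESeq2 are named in the submitters' processing notes. Versions, build and strand setting are not given in the sources used here, although 53585 of 54532 gene spans equal those of GENCODE M21 (GRCm38). The deposited values are FPKM per gene and mouse, made by the authors. Multiplied by gene length, they were whole multiples of 1 step per library for all values (tolerance 0.01), which gave the reads per gene. Limits of 3 reads and ratio intervals cover counting error only.

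Strains were compared in pairs with limma 3.58.1 in R 4.3.3 (two-sided, eBayes with a trend) on FPKM plus a pseudocount of 0.1 on the log2 scale. Genes averaging under 0.1 FPKM over the 6 mice compared were left out. P-values had Benjamini-Hochberg adjustment over all genes tested and a threshold of 0.05. This pseudocount understates the fold changes of low genes. Tested on simulated counts for each comparison, the fit made more false calls than the threshold sets among genes under 1 FPKM. Gbp3 and Ifit1 lie in that range in WSB. The simulation gave every gene the same spread beyond counting error, so it does not measure the share of false calls in these data. Mice of a strain were not duplicates of each other (chi-square per gene at least 7.29). Similar transcripts were searched with blastn 2.17.0. Members and lists were chosen with earlier results of these data known. All 37 members are named, and of each pathway list the called genes, at most 10 by size of change. The values of 1 listed gene are not reported here. Alternatives were pseudocounts of 1 and 0.01, no filter and a filter of 1 FPKM, median-ratio and total-read rescaling, voom weights, a joint fit of the 3 strains, a replicate block, eBayes with no trend, removal of a GC trend and leaving out each mouse.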

Additional observations from a re-analysis of the deposited data

How the results depend on the processing

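No called member changed direction, but over the alternatives the log2 fold change turned sign at least once for 10 of 33 tested members in WSB against B6, 5 of 34 in C3H against B6 and 6 of 33 in WSB against C3H, none of them while called. Leaving out 1 mouse at a time, the interferon-stimulated genes called ranged from 0 to 1 in WSB against B6, 0 to 1 in C3H against B6 (1, Ifitm3, without C3H replicate 2) and 0 to 2 in WSB against C3H. With a filter of 1 FPKM, which leaves out Gbp3 and Ifit1, 0 were called in both WSB comparisons, and with no filter 0 in WSB against C3H. In WSB against B6, 2 were called with all 3 strains in one fit (Psmb8 added) and 2 with voom weights (Parp14 added).

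Over all genes called, the same fits ranged from 651 to 825 (main value 1224) in WSB against B6, 498 to 2301 (956) in C3H against B6 and 475 to 2002 (1182) in WSB against C3H, both highest counts coming without C3H replicate 2. Voom weights gave 1488 in C3H against B6.

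Replicate numbers gave no sign of pairing the mice: deviations of same-numbered mice correlated at -0.157 to 0.037. Those of differently numbered mice correlated at -0.15 to 0.196. Such correlations cannot show whether mice were collected together. With the replicate block, 754, 480 and 531 genes were called in WSB against B6, C3H against B6 and WSB against C3H, and 0 members in each. With 3 pairs, not every mouse correlated best with its own number.

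Fold changes followed GC content in C3H (Spearman over genes 0.483 in C3H against B6 and -0.398 in WSB against C3H). With the GC trend removed, Gbp3 and Ifit1 kept their calls. The members' median of 0.552 FPKM rests on few reads per mouse, which limits the precision of each fold change.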
